A study of Mus musculus with 6 samples.

Results

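The genes described here are the collagens and a set of matrix proteins made by the fibroblasts of the meninges, the membranes that wrap the brain. Which cells made them in these samples was not tested. They were chosen by name: every gene whose symbol is that of a collagen chain, and Dcn, Lum, Ogn, Fmod, Bgn, Islr, Fn1, Postn and Sparc, with the probe set of the highest mean signal for each gene. This gave 53 genes, 44 collagens and 9 other matrix proteins, of 19938 genes with a probe set of their own, and Col21a1 was not analysed here. RNA came from the whole hippocampus of male C57Bl/6J mice killed at postnatal day 70, which had been injected with saline or with ethanol at 2.5 g/kg, 2 times a day on postnatal days 4 and 7. Littermate pups were split between the treatments, and RNA from 3 males of different litters was pooled for each Affymetrix Mouse Gene 1.0 ST array. Each group therefore holds 3 arrays from 9 mice, an array stands for a pool, and differences between single mice are not seen. Levels are log2 values after RMA, and a change is the ethanol mean minus the saline mean on that scale. A gene is said to lie at the receptor-gene level when its mean is at or below 5.38, under which lie 95% of 1194 odorant and pheromone receptor genes (Olfr and Vmn) on the same arrays. All 12 markers of hippocampal neurons, Prox1 and Camk2a among them, lay above that level. So did 62.2% of all genes, and this does not tell the hippocampus from tissue beside it.

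Collagens are chains that wind around each other into a stiff helix and assemble outside the cell. Fibrillar collagens form the ropes of connective tissue, type IV collagen forms the sheet of basement membranes, and other types decorate or link these structures. The small leucine-rich proteoglycans bind collagen fibrils and control their width. Brain tissue itself holds little fibrillar collagen, which is found mainly in the meninges, in the stroma of the choroid plexus and around larger vessels, while type IV collagen lies under every vessel and under the surface of the brain.

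None of the 53 genes passed the test between ethanol and saline. In limma, 0 of 53 were higher and 0 were lower at an unadjusted p under 0.05, where 5.22% of all genes passed (2.8% higher and 2.41% lower), and the lowest unadjusted p was 0.0509, for Ogn. After Benjamini-Hochberg adjustment over all probe sets 0 passed (lowest adjusted p of a member 0.931), and the methods' t-test also called 0 at either threshold. The median change over the 53 was -0.005, against 0.00 over all genes, and 24 of the 53 (45.3%) had a change above 0, against 50.1% of all genes. The 95% confidence interval of 46 of the 53 (86.8%) lay within 1.2-fold either way, as it did for 92.0% of all genes. The other 7 were Col8a1, Col23a1, Dcn, Fmod, Islr, Lum and Ogn, whose intervals reach beyond 1.2-fold. Ethanol and saline pools did not overlap in 2 of the 53, Lum (higher) and Col15a1 (lower), where 10.4% of all genes do not overlap (5.35% higher and 5.09% lower). Above the receptor-gene level lay 19 of the 53, against 62.2% of all genes, and the other 34 (64.2%) were at it. At such a signal a change of a scarce transcript may not be detectable. In bulk tissue, fewer cells of a type and less RNA per cell cannot be told apart.

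**Figure D1:**
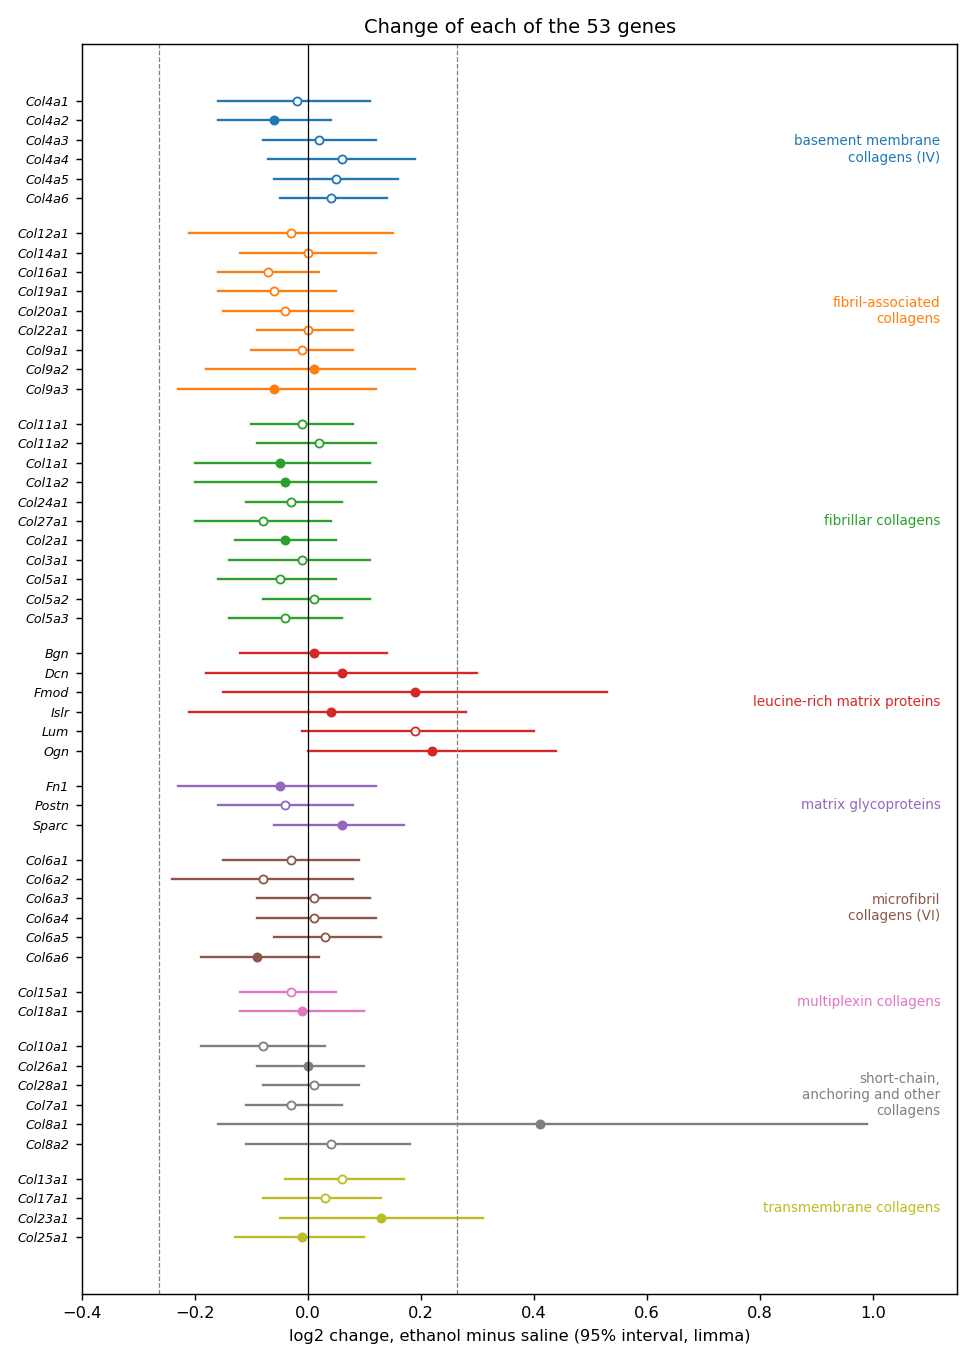
Log2 change (ethanol minus saline) of each of the 53 genes with its 95% interval from limma, by group, with filled symbols for genes above the receptor-gene level and dashed lines at 1.2-fold. Every interval includes 0, and the widest is that of Col8a1, from -0.16 to 0.99.

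The fibrillar collagens had changes from -0.08 to 0.02, with a median of -0.038. Of 11 genes, 9 lay below 0 and 0 passed in either direction, and the intervals of all 11 lay within 1.2-fold. Col1a1 and Col1a2 encode the chains of type I collagen, the main fibrillar collagen of fibroblasts. The level of Col1a1 was 6.32, 6.26 and 6.39 in saline pools 1, 2 and 3, and 6.41, 6.16 and 6.25 in ethanol pools 1, 2 and 3. That of Col1a2 was 5.84, 5.69 and 5.82 in the saline pools and 5.88, 5.63 and 5.71 in the ethanol pools. Both chains were highest in ethanol pool 1 and lowest in ethanol pool 2, so that the saline pools lay inside the range of the ethanol pools. The changes were -0.05 ± 0.07 (SE) for Col1a1 and -0.04 ± 0.07 for Col1a2, or 0.967-fold and 0.971-fold. Col3a1, the collagen that often joins type I in fine fibrils, lay at the receptor-gene level, at 5.12, 4.98 and 5.10 in the saline pools and 5.13, 5.02 and 5.0 in the ethanol pools (-0.01 ± 0.05). Col2a1, the cartilage collagen, was the only other fibrillar gene above that level, at 5.44, 5.42 and 5.43 in the saline pools and 5.40, 5.33 and 5.43 in the ethanol pools. The rest, the minor fibril chains of types V and XI with Col24a1 and Col27a1, had changes from -0.08 for Col27a1 to 0.02 for Col11a2.

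The promoter window of Col1a2 is shown as the chain of type I collagen for which one was given. It spans chr6:4505368-4505667 on the plus strand of GRCm38.p6, from 250 bases before the start site of the RefSeq transcript to 50 after it, and it is printed 5′ to 3′. Capitals mark CCAAT and GGGCGG on either strand, and TATAAA is not in this window.
Col1a2: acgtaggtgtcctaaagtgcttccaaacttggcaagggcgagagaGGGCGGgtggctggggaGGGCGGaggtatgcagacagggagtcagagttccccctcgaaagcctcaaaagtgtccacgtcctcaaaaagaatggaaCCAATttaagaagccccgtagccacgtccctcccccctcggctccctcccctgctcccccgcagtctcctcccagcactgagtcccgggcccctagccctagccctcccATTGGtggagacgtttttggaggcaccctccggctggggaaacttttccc
The first CCAAT begins 109 bases before the start site. Of 32851 promoter windows of this length from RefSeq, 37.4% hold CCAAT, 35.7% hold GGGCGG and 13.6% hold TATAAA on either strand. Windows were matched for 41 of the 53 genes, 45 windows in all. CCAAT was in 33.3% of these 45 windows, GGGCGG in 53.3% and TATAAA in 15.6%. Counted by gene, CCAAT was in those of 15 genes, GGGCGG in those of 23 and TATAAA in those of 7, as a description of the letters alone.

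The type IV collagens, the network of basement membranes, had changes from -0.06 to 0.06. Of 6 genes, 4 lay above 0 and 0 passed in either direction. Col4a1 and Col4a2 encode the chains found in nearly all basement membranes and lie head to head. Col4a2 was at 5.88, 5.77 and 5.85 in the saline pools and 5.82, 5.75 and 5.76 in the ethanol pools, a change of -0.06 ± 0.05 (SE). Col4a1 lay at the receptor-gene level, at 5.31, 5.11 and 5.19 in the saline pools and 5.16, 5.25 and 5.13 in the ethanol pools, a change of -0.02 ± 0.06. The chains shared their highest value, in saline pool 1. In ethanol pool 2, Col4a1 was the highest and Col4a2 the lowest of the ethanol pools. Col4a3, Col4a4, Col4a5 and Col4a6, chains of more restricted basement membranes such as that of the kidney, lay at the receptor-gene level with changes from 0.02 to 0.06.

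The promoter windows of Col4a1 and Col4a2 are printed because these neighbours share 78 bases of them on opposite strands. Col4a1 spans chr8:11312777-11313076 on the minus strand and Col4a2 chr8:11312555-11312854 on the plus strand (GRCm38.p6), with capitals as before.
Col4a1: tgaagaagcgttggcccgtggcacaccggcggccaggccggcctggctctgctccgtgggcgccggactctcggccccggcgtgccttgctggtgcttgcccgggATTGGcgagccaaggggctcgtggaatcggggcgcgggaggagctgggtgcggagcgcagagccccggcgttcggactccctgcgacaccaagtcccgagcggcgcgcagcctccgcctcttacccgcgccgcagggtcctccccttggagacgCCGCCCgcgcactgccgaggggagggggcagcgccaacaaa
Col4a2: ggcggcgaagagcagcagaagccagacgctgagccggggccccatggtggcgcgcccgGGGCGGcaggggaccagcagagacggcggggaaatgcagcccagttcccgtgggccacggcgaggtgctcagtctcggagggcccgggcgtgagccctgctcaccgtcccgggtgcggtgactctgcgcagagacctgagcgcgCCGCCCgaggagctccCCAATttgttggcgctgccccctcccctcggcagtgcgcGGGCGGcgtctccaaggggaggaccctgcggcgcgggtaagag
Such neighbours were common among the collagens. In the order of protein-coding genes in RefSeq, 9 pairs of the 53 genes lie next to each other, and the changes of 7 of these pairs had the same sign. The pairs are Col3a1 with Col5a2, Col4a1 with Col4a2, Col4a3 with Col4a4, Col4a5 with Col4a6, Col6a1 with Col6a2, Col6a4 with Col6a5, Col6a5 with Col6a6, Col9a1 with Col19a1, and Dcn with Lum. The share of same-sign neighbours over all genes was not computed. Many of these changes were smaller than their SE, so their signs alone show no shared change.

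The type VI collagens, which form beaded microfibrils around cells, had changes from -0.09 to 0.03, with 3 of 6 above 0. Col6a6 was at 5.55, 5.45 and 5.46 in the saline pools and 5.40, 5.46 and 5.34 in the ethanol pools. Its change of -0.09 ± 0.05 (SE) was the lowest of the 53 genes, and ethanol pool 2 overlapped the saline pools. A dimmer probe set of Col6a6 was at 0.04 ± 0.04, and a dimmer one of Col6a5 at -0.06 ± 0.07 where the brighter was at 0.03 ± 0.04. The other 5 genes lay at the receptor-gene level, the main chains Col6a1, Col6a2 and Col6a3 with changes of -0.03, -0.08 and 0.01. The fibril-associated collagens, which sit on the surface of fibrils, had changes from -0.07 to 0.01, with 8 of 9 below 0. Of these, Col9a2 and Col9a3, chains of the type IX collagen of cartilage and eye, lay above the receptor-gene level. Col9a3 was at 6.46, 6.22 and 6.33 in the saline pools and 6.40, 6.16 and 6.27 in the ethanol pools (-0.06 ± 0.08). Col9a2 was at 5.86, 5.59 and 5.66 in the saline pools and 5.83, 5.68 and 5.61 in the ethanol pools (0.01 ± 0.08). In both genes pool 1 was the highest of each group, and the groups overlapped. The 7 others (Col9a1, Col12a1, Col14a1, Col16a1, Col19a1, Col20a1 and Col22a1) had changes from -0.07 for Col16a1 to 0.00 for Col14a1 and Col22a1.

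Col8a1 varied more between pools than any other of the 53 genes. It encodes a short-chain collagen that forms networks in vessel walls and under the endothelium of the cornea. Its level was 5.77, 5.65 and 5.99 in the saline pools and 6.59, 5.51 and 6.55 in the ethanol pools. Ethanol pools 1 and 3 lay above every saline pool, and ethanol pool 2 below every saline pool. The SD was 0.61 between ethanol pools and 0.17 between saline pools. The change of 0.41 ± 0.25 (SE), or 1.33-fold with a 95% interval from 0.892 to 1.99, did not pass (unadjusted p = 0.139, adjusted p = 0.931, limma). Without ethanol pool 1 it was 0.23 and without ethanol pool 3 it was 0.25. Without ethanol pool 2 it was 0.77 ± 0.09 and passed the unadjusted threshold (unadjusted p = 4.12e-05, limma) but not the adjusted one (adjusted p = 0.257), and over all settings tried its adjusted p ran from 0.257 to 1 and its change from 0.23 to 0.77. Col8a2, the partner chain, lay at the receptor-gene level, at 4.81, 4.73 and 4.89 in the saline pools and 4.92, 4.73 and 4.89 in the ethanol pools, with a change of 0.04 ± 0.06. Its highest value was also in ethanol pool 1, and the groups overlapped. Choroid plexus markers, genes of the tissue that makes cerebrospinal fluid, had the same order of ethanol pools as Col8a1. The mean of the 14 measured markers stood 1.069, -0.275 and 0.638 away from the mean of the saline group in ethanol pools 1, 2 and 3, and from -0.167 to 0.176 in the saline pools. All 14 lay above the receptor-gene level and had a change above 0, with a median of 0.50, and 3 were higher at the unadjusted threshold, where 2.8% of all genes were. These were Kl, a hormone co-receptor (0.52 ± 0.22), Steap1 (0.50 ± 0.20) and Kcne2, a potassium channel subunit (0.45 ± 0.19). None passed after adjustment (adjusted p = 0.931, limma), in the methods' t-test, or without saline pool 1 or 2 or ethanol pool 1 or 3, and without ethanol pool 1 the changes were 0.30, 0.30 and 0.25. The part of this tissue in the values of Col8a1 was not tested.

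The promoter window of Col8a1 is printed because this gene had the widest range. It spans chr16:57754688-57754987 on the minus strand (GRCm38.p6) and holds GGGCGG, or its reverse complement, 4 times.
Col8a1: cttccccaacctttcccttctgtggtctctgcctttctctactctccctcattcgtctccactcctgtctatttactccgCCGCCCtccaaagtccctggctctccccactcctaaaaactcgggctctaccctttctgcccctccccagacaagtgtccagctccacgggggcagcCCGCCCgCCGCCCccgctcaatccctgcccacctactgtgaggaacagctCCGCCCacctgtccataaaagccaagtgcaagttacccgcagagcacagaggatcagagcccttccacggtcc
The closest of these begins 23 bases before the start site. Of the other short-chain and single collagens, Col26a1 lay above the receptor-gene level and hardly varied, at 6.63, 6.58 and 6.62 in the saline pools and 6.64, 6.63 and 6.56 in the ethanol pools. Col7a1, which anchors the skin to its basement membrane, Col10a1, the collagen of hypertrophic cartilage, and Col28a1 lay at the receptor-gene level, with changes from -0.08 to 0.01.

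The transmembrane collagens, which span the cell membrane of neurons and epithelia, had changes from -0.01 to 0.13. Col25a1, a neuronal collagen whose shed part is found in amyloid plaques, was at 6.67, 6.60 and 6.60 in the saline pools and 6.68, 6.60 and 6.53 in the ethanol pools (-0.01 ± 0.05, SE). Col23a1 was at 5.57, 5.27 and 5.50 in the saline pools and 5.48, 5.63 and 5.62 in the ethanol pools. Ethanol pools 2 and 3 lay above all saline pools and ethanol pool 1 did not. Its change of 0.13 ± 0.08 did not pass (unadjusted p = 0.141, limma). Without saline pool 1 it was at 0.19 ± 0.08 and passed the unadjusted threshold (unadjusted p = 0.0436, limma), with an adjusted p of 0.81 and a range of 0.746 to 1 over all settings, and without saline pool 2 it was at 0.04. Col13a1 and Col17a1 lay at the receptor-gene level with changes of 0.06 and 0.03. Of the multiplexin collagens of vascular basement membranes, Col18a1, the precursor of endostatin, was at -0.01 ± 0.05. Col15a1 was at 4.79, 4.82 and 4.83 in the saline pools and 4.77, 4.78 and 4.77 in the ethanol pools. Its pools did not overlap, but the change was -0.03 ± 0.04 at the receptor-gene level.

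The leucine-rich matrix proteins had changes from 0.01 to 0.22 with a median of 0.126, and all 6 lay above 0, but 0 passed the unadjusted threshold. Ogn (osteoglycin or mimecan), a small leucine-rich proteoglycan of connective tissue, was at 7.70, 7.80 and 7.97 in the saline pools and 8.22, 7.87 and 8.04 in the ethanol pools. Ethanol pools 1 and 3 lay above all saline pools, and ethanol pool 2 lay below saline pool 3. The change was 0.22 ± 0.10 (SE), or 1.16-fold with a 95% interval from 0.999 to 1.35 (unadjusted p = 0.0509, adjusted p = 0.931, limma). Fmod (fibromodulin), which binds collagen fibrils, was at 6.71, 6.61 and 7.19 in the saline pools and 7.06, 6.82 and 7.20 in the ethanol pools. Pool 3 was the highest of each group, and its saline value lay above those of ethanol pools 1 and 2. The change was 0.19 ± 0.15, or 1.14-fold, with a 95% interval from 0.901 to 1.44. Lum (lumican) lay at the receptor-gene level, at 4.85, 5.22 and 5.20 in the saline pools and 5.33, 5.25 and 5.26 in the ethanol pools. Its pools did not overlap, with saline pool 1 well below the other 5, and the change was 0.19 ± 0.09 (unadjusted p = 0.0644, limma). Dcn (decorin), the neighbour of Lum and a regulator of fibril growth, was at 10.91, 10.74 and 11.05 in the saline pools and 11.08, 10.74 and 11.07 in the ethanol pools. Pool 2 of each group was lowest, at the same level, and the change was 0.06 ± 0.11, with an interval from 0.883 to 1.23 times the saline level. Islr, a leucine-rich protein with an immunoglobulin domain, was at 8.72, 8.83 and 9.07 in the saline pools and 9.08, 8.73 and 8.92 in the ethanol pools (0.04 ± 0.11). Bgn (biglycan), a close relative of decorin, was at 9.25, 9.39 and 9.38 in the saline pools and 9.38, 9.27 and 9.40 in the ethanol pools (0.01 ± 0.06), and was the member of this group whose interval lay within 1.2-fold. Single pools moved these calls. Without saline pool 3, Ogn (0.29), Fmod (0.37) and Lum (0.25) passed the unadjusted threshold, as Ogn (0.31) did without ethanol pool 2 and Lum (0.26) without saline pool 2, with adjusted p from 0.705 to 1 for these genes over all settings. Other omissions lowered the changes, Ogn to 0.13 without ethanol pool 1, Fmod to 0.08 without saline pool 2 and Lum to 0.07 without saline pool 1. With array weights, Fmod was at 0.03.

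The promoter window of Ogn is printed as that of the gene with the lowest p. It spans chr13:49607765-49608064 on the plus strand (GRCm38.p6), and the capitals mark TATAAA and its reverse complement, which overlap each other.
Ogn: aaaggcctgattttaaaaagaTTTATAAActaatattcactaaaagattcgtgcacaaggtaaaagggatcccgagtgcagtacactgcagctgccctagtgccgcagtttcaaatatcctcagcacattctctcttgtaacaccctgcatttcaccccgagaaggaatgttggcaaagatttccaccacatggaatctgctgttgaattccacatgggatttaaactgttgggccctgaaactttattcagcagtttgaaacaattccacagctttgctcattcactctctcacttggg
Neither CCAAT nor GGGCGG is in this window, and the marked letters begin 229 bases before the start site.

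The matrix glycoproteins had changes from -0.05 to 0.06 and 0 of 3 passed. Sparc, a collagen-binding protein that astrocytes and vessels also make, was at 11.93, 12.04 and 12.00 in the saline pools and 12.07, 11.97 and 12.10 in the ethanol pools (0.06 ± 0.05, SE). Fn1 (fibronectin), a fibril-forming ligand of integrins, was at 9.52, 9.29 and 9.59 in the saline pools and 9.47, 9.32 and 9.45 in the ethanol pools (-0.05 ± 0.08). Both genes overlapped between groups. Fn1 was lowest in pool 2 of each group, and without saline pool 2 it was at -0.14 and passed the unadjusted threshold (unadjusted p = 0.0441, limma), with an adjusted p of 0.917 and a range of 0.766 to 1 over all settings. It was at 0.01 without saline pool 3 and at -0.01 without ethanol pool 2. Postn (periostin), a matrix protein of fibroblasts, lay at the receptor-gene level, at 5.05, 5.17 and 5.10 in the saline pools and 5.05, 5.0 and 5.15 in the ethanol pools (-0.04 ± 0.05).

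**Figure D2:**
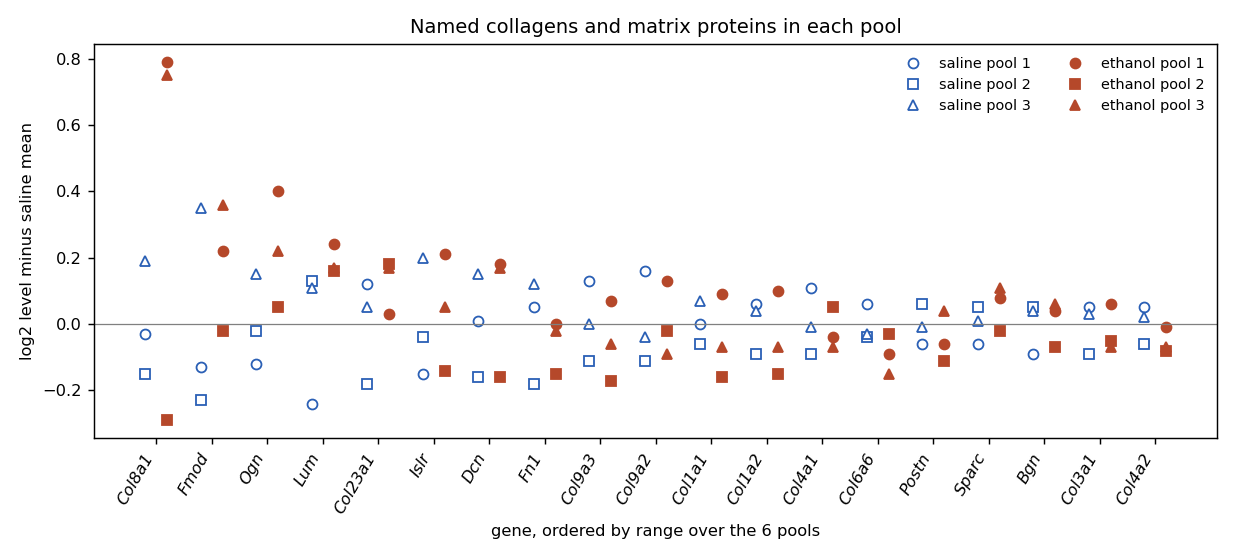
Log2 level of 19 collagens and matrix proteins in each pool minus the saline mean, saline pools drawn open, ethanol pools filled and each pool number in its own shape, ordered by the range over the 6 pools. Ethanol pools 1 and 3 stand apart from ethanol pool 2 in Col8a1, and the pools of both groups are mixed in most other genes.

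Pools of the same treatment differed from each other in many of these genes in a shared way. Within the saline group, pool 2 was the lowest of the 3 pools in 37 of 53 genes (69.8%), against 35.8% of all genes, and pool 1 was the highest in 28 (52.8%), against 36.1%. Within the ethanol group, pool 1 was the highest in 31 of 53 (58.5%), against 32.6% of all genes, and pool 2 the lowest in 24 (45.3%), against 33.3%. The shares over all genes are not matched for signal, since 64.2% of the 53 but 37.8% of all genes lay at the receptor-gene level. Among the 19 members above the receptor-gene level, ethanol pool 2 was the lowest ethanol pool in 13 (68.4%), against 38.5% of all genes above that level, and saline pool 2 the lowest saline pool in 15 (78.9%), against 31.1%. Saline pool 1 was the highest saline pool in 10 of these 19 (52.6%), against 27.9% of all genes above that level. The leucine-rich proteins differed, with their lowest saline mean in pool 1 (-0.12 from the saline mean). These counts are descriptions, since genes on the same arrays are not independent. Over all 53 genes the spread within groups was close to that of other genes, but 34 of them lay at the receptor-gene level. The median SD over the 53 was 0.060 between saline pools and 0.058 between ethanol pools, against 0.054 and 0.055 over all genes. In the 19 members above the receptor-gene level it was larger, at 0.083 and 0.082, against 0.056 and 0.056 over all genes above it. In the leucine-rich proteins it was 0.168 and 0.177. A range over the 6 pools above 0.5 was seen in 3 of the 53 (Col8a1, Fmod and Ogn) and in 1.5% of all genes. Those 3 members lay above the receptor-gene level, where 1.98% of all genes had such a range.

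**Figure D3:**
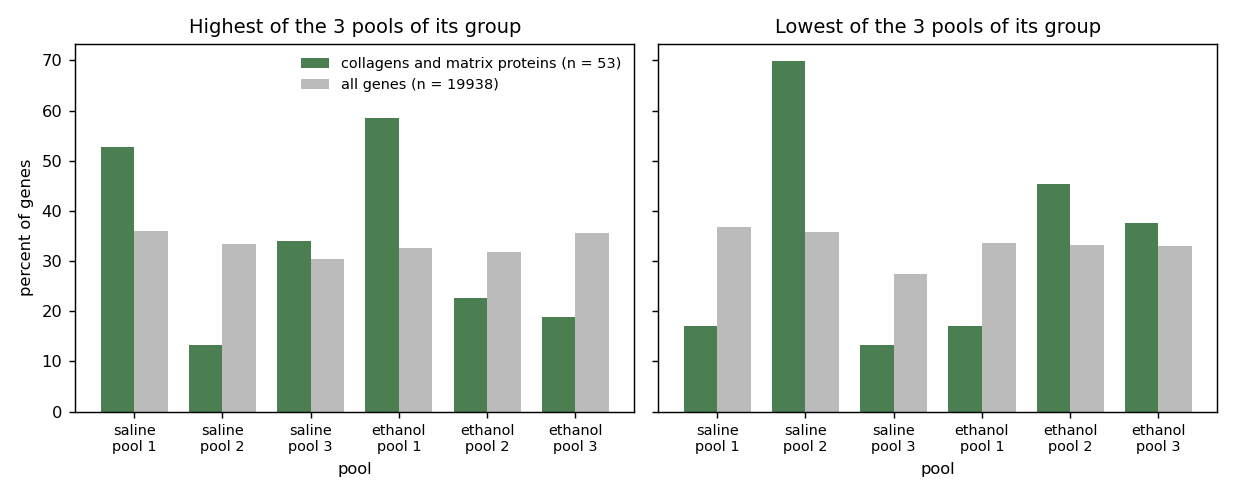
Percent of genes in which each pool was the highest (left) or the lowest (right) of the 3 pools of its group, for the 53 collagens and matrix proteins and for all 19938 genes. Saline pool 2 was the lowest saline pool in 69.8% of the 53 genes and ethanol pool 1 the highest ethanol pool in 58.5%.

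Over the mean of all 53 genes, ethanol pool 1 was the highest ethanol pool and ethanol pool 2 the lowest, at 0.05, -0.032 and 0.014 from the saline mean in pools 1, 2 and 3. The means of the fibrillar, fibril-associated and short-chain collagens and of the leucine-rich proteins had this order, as did those of markers of meningeal fibroblasts and choroid plexus, of genes of collagen synthesis and breakdown, of laminins and of perineuronal net genes. By means, the order is therefore particular to none of these lists, and they differed in its size. Ethanol pools 2 and 3 were close in several of them, as in the fibrillar collagens (-0.063 and -0.054). By medians, ethanol pool 3 was the lowest in the fibril-associated collagens, the genes of breakdown and the perineuronal net genes. Other orders of means were seen in the type IV, type VI, multiplexin and transmembrane collagens and in the matrix glycoproteins. Markers of mural cells, endothelial cells and hippocampal neurons also had other orders, and ethanol pools 2 and 3 tied in the collagen receptors. Markers of meningeal fibroblasts other than these 53 genes are given beside the leucine-rich proteins. Over 15 markers the mean stood 0.204, -0.104 and 0.174 away from that of the saline group in ethanol pools 1, 2 and 3, and at -0.052, -0.073 and 0.125 in the saline pools. For the 6 leucine-rich proteins these means were 0.216, -0.033 and 0.172 in the ethanol pools and -0.12, -0.045 and 0.166 in the saline pools. Of the 15 markers, 12 had a change above 0, 0 passed in either direction, 4 lay at the receptor-gene level (Cdh1, Crabp2, Slc22a2 and Tbx18) and the median change was 0.071. Igf2, a growth factor made by the meninges and choroid plexus, was at 9.51, 9.54 and 9.69 in the saline pools and 10.22, 9.31 and 10.08 in the ethanol pools (0.29 ± 0.20, SE). Slc6a13, a GABA transporter of the meninges, was at 8.36, 8.38 and 8.56 in the saline pools and 8.72, 8.22 and 8.70 in the ethanol pools (0.12 ± 0.13). In both genes ethanol pools 1 and 3 lay above every saline pool and ethanol pool 2 below. Without ethanol pool 2 both passed the unadjusted threshold, at 0.57 for Igf2 and 0.28 for Slc6a13, but not after adjustment (adjusted p of 0.257 and 0.581, limma). Without ethanol pool 1 they were at 0.12 and 0.03, and without ethanol pool 3 at 0.19 and 0.04. Igf2 and Slc6a13 were the brightest of the list and do not stand for all of it. Igfbp2, Mgp, Slc13a4 and Slc22a6 had the same pattern of pools, and no other marker of the 15 did. Slc47a1, above the receptor-gene level, had a change below 0 (-0.14 ± 0.18). Several of these markers are also made in the choroid plexus, and the part of either tissue in the values of the 53 genes was not tested. Thalamic markers (the thalamus adjoins the hippocampus from below) had another order, at 0.772, 0.285 and 0.12 in ethanol pools 1, 2 and 3, and from -0.012 to 0.008 in the saline pools. All 16 had a change above 0, with a median of 0.407, and 10 were higher at the unadjusted threshold, where 2.8% of all genes were. The named ones are Ramp3, a receptor partner protein (0.76 ± 0.26), Synpo2, an actin-binding protein (0.72 ± 0.22), and Prkcd, a protein kinase C (0.67 ± 0.22). These passed without any single pool but not after adjustment (adjusted p = 0.931, limma) or in the methods' t-test, and without ethanol pool 1 they were at 0.41, 0.40 and 0.36. Tcf7l2, Synpo2 and Vipr2 of this list had already been reported as higher from these same arrays, so its count is not independent of that report. The ANOVA of that report called Synpo2, and the methods' t-test as computed here did not. That report also found these genes higher by PCR of the same samples. Markers of mural cells lay from -0.065 to 0.046 over all pools and those of endothelial cells from -0.068 to 0.055, with 0 of 12 and 0 of 11 past the unadjusted threshold. The brightest of them had changes of 0.06 for Vtn, -0.04 for Rgs5, 0.01 for Slc2a1 and -0.06 for Slco1a4. Markers of hippocampal neurons lay from -0.046 to 0.034, with 0 of 12 past it and the brightest, Camk2a and Slc17a7, at 0.02 and -0.02.

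**Figure D4:**
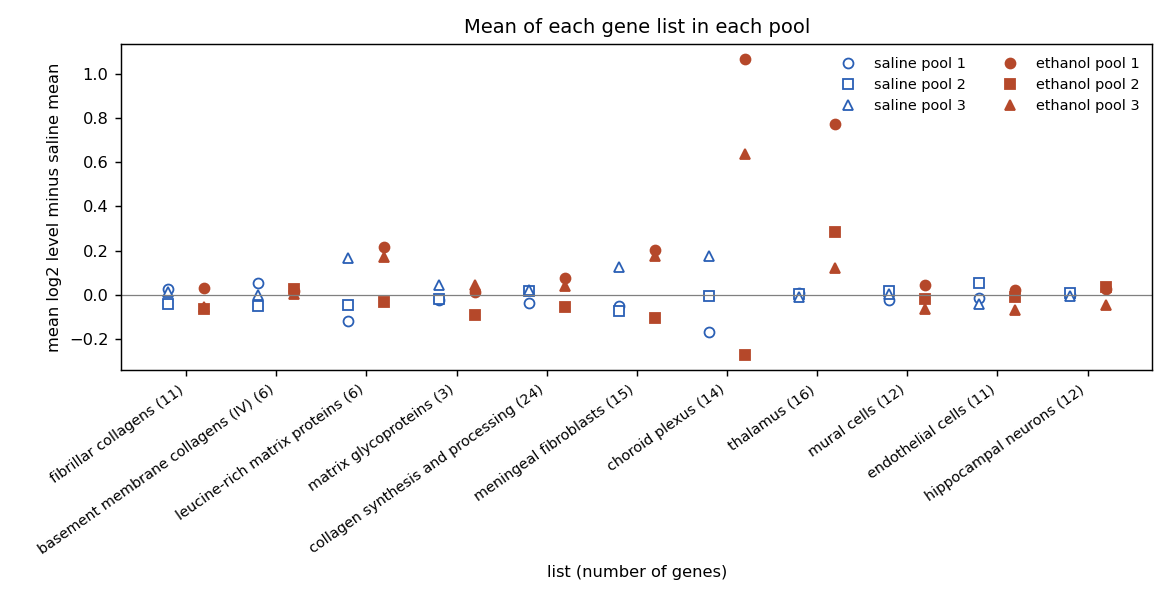
Mean log2 level of each gene list in each pool minus the saline mean, with the number of genes of each list in parentheses. The ethanol pools lie farthest apart in the choroid plexus markers, from -0.275 to 1.069, and the fibrillar collagens, in the same order, stay within -0.063 and 0.029.

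Of 59 genes that make, bind or remove collagen or build basement membranes with it, 3 passed the unadjusted threshold (5.08%), all lower, a share close to the 5.22% of all genes, and 0 passed after adjustment (lowest adjusted p = 0.931, limma). At the receptor-gene level lay 5 genes of synthesis, 3 receptors, 5 genes of breakdown and 6 basement membrane genes. Of 24 genes of collagen synthesis and processing, 0 were higher and 1 was lower, with a median change of -0.007. This was Plod2, which hydroxylates the lysines from which fibrils are cross-linked, at 6.23, 6.49 and 6.15 in the saline pools and 5.99, 5.93 and 6.16 in the ethanol pools. It fell by 0.26 ± 0.09 (SE) on the log2 scale at the unadjusted threshold (unadjusted p = 0.0183, limma), and ethanol pool 3 overlapped saline pool 3. P4hb, a subunit of prolyl hydroxylase, and Ppib, a proline isomerase, had changes of -0.03 ± 0.06 and -0.01 ± 0.05. Of 9 collagen receptors, 0 were higher and 1 was lower, Itga1, the integrin chain that binds type IV collagen. Its level was 6.54, 6.48 and 6.45 in the saline pools and 6.42, 6.31 and 6.17 in the ethanol pools, which did not overlap, and it fell by 0.19 ± 0.06 (unadjusted p = 0.0163, limma). Ddr1, a receptor tyrosine kinase for collagen, and Itgb1, the partner chain of Itga1, had changes of -0.06 ± 0.06 and 0.09 ± 0.04. Of 11 genes of collagen breakdown 0 passed, with the protease inhibitors Timp2 and Timp3 at 0.01 ± 0.08 and 0.04 ± 0.05. Ctsk, Mmp8, Mmp9, Mmp13 and Timp1 lay at the receptor-gene level, where a change may not be detectable. Of 15 laminins and other basement membrane genes, 0 were higher and 1 was lower, the laminin chain Lamc3 (5.77, 5.67 and 5.54 against 5.51, 5.55 and 5.49), which fell by 0.14 ± 0.06 (unadjusted p = 0.0414, limma). Agrn, a heparan sulfate proteoglycan of basement membranes, and Npnt, a ligand of integrins in them, had changes of -0.06 ± 0.04 and 0.03 ± 0.07. The methods' t-test called none of Plod2, Itga1 and Lamc3. Plod2 was at -0.17 without saline pool 2 and also did not pass without ethanol pool 1 or 2, Itga1 was at -0.12 without ethanol pool 3 and did not pass without saline pool 1, and Lamc3 was at -0.09 without saline pool 1 and passed among the single omissions only without saline pool 3.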

How the data were processed

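RNA of 3 saline and 3 ethanol pools was hybridized to Affymetrix Mouse Gene 1.0 ST arrays. The authors ran RMA for whole genes and deposited its log2 values, which lie between 3.51 and 13.92 with array medians from 5.84 to 5.89. The RMA software, its version and the genome build were not given in the sources used here. Groups were taken from the treatment labels. The values were used without further normalization. The platform annotation gives 1 gene symbol for 21789 of 35556 probe sets, several for 1621 and none for 12146. All 23410 named probe sets entered a two-sided comparison of ethanol with saline in limma 3.58.1 (lmFit, eBayes; R 4.3.3), with no covariate and no filter, and p-values were adjusted over all of them by Benjamini-Hochberg. SEs and 95% intervals are those of limma. The methods name an ANOVA, which with 2 groups is an equal-variance test, called the methods' t-test. With 3 pools a group, exact permutation p-values stop at 0.1, so none was used. The number of arrays limits precision (median SE of 0.0482 over the 53 genes). All 53 genes matched RefSeq (GRCm38.p6, used for names, neighbours and promoter windows) under their symbols. The procedure was tested on simulated data. The genes, lists, named genes and tests were chosen with earlier results of these data known. Named were members past the unadjusted threshold (0 were), the 12 above the receptor-gene level with the largest range over pools, and Col1a1, Col1a2, Col3a1, Col4a1, Col4a2, Dcn, Lum, Ogn, Fmod, Bgn, Islr, Fn1, Postn and Sparc. Other members were named to account for all. Of each other list, up to 3 genes past that threshold or the 2 brightest were named. Alternatives were leaving out each array, array weights, an intensity trend, averaged probe sets per gene, all rows, rows with 1 symbol, dim probe sets left out, quantile normalization, median centring, a block on replicate number and the methods' t-test. They were extended to the genes of the other lists after the data were seen. Figures were drawn with matplotlib 3.10.9. miRNA, DNA methylation and histone arrays were not analysed here.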

Additional observations from a re-analysis of the deposited data

How the results depend on the processing

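The number of the 53 genes past the unadjusted threshold in limma was 0 higher and 0 lower with the values as deposited. The count of higher genes was 2 with the replicate number as a block (Col8a1 and Fmod), 1 with quantile normalization, 1 with probe sets averaged per gene and 1 with an intensity trend (Ogn in all 3). With 1 array left out it ran from 0 to 3 (3 without saline pool 3), and the count of lower genes from 0 to 2 (Col6a2 and Fn1, without saline pool 2). It stayed 0 in the methods' t-test, with median centring, array weights or dim probe sets left out, over all rows and over rows with 1 symbol, and lower genes numbered 0 under every setting that kept all arrays. After adjustment 0 of the 53 passed under any of the 16 settings. The medians over the 53 genes, the fibrillar collagens and the leucine-rich proteins were -0.005, -0.038 and 0.126. Under each setting that could change them they moved by less than the spread between pools (SD of 0.032, 0.04 and 0.141). That spread is larger than each median, so it cannot show that the medians held. The leucine-rich median fell to 0.012 with array weights. Of 300 recomputed changes of the 19 named members, 287 kept their side of the threshold, 27 of them with another sign or a change that rounds to 0.00. The other 13 newly passed, each with its own sign as before (Fn1 lower, the others higher). Over all named probe sets, same-numbered pools did not deviate together (r = -0.0488, -0.022 and 0.0588 for pools 1, 2 and 3). Among the 19 members above the receptor-gene level, pool 2 was the most frequent lowest pool of both groups (78.9% in saline, 68.4% in ethanol). Whether the number marks pools of shared litters was not tested. The block changed no call of a member other than those of Col8a1 and Fmod. With 3 arrays per group, the signal of the 34 genes at the receptor-gene level limits what can be detected.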

Other observations

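The matrix of brain tissue itself differs from that of the meninges. It is built of hyaluronan, lecticans such as neurocan and brevican, tenascins and link proteins, and is densest in perineuronal nets around interneurons. Of 14 such genes, 4 had a change above 0, 0 passed the unadjusted threshold in either direction in limma, and the median change was -0.03. At the receptor-gene level, where a change may not be detectable, lay 4 of them (Acan, Hapln3, Has2 and Has3). Ncan (neurocan) was at 10.61, 10.66 and 10.70 in the saline pools and 10.58, 10.63 and 10.57 in the ethanol pools (-0.06 ± 0.04, SE). Ptprz1, a receptor phosphatase that carries chondroitin sulfate, was at 10.71, 10.71 and 10.76 in the saline pools and 10.73, 10.66 and 10.56 in the ethanol pools (-0.08 ± 0.05). It was at -0.12 without ethanol pool 1, where it passed the unadjusted threshold, and at -0.03 without ethanol pool 3. The mean of the list lay from -0.027 to -0.008 in the ethanol pools and from -0.018 to 0.011 in the saline pools.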
